A study of Mustela putorius furo with 8 samples.

Results

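The transcripts described here were those of 7 genes that act at the passage from G1 into S phase. They were the 3 D-type cyclins CCND1, CCND2 and CCND3, the 3 Cip/Kip inhibitors of cyclin-dependent kinases (CDKs) CDKN1A, CDKN1B and CDKN1C, and the transcription factor gene MYC. They were chosen by symbol from the 27912 genes of the count tables, which hold all 7. In every library 6 of them exceeded 5 counts per 1000000 UMIs, the unique molecular identifiers that count transcripts (CPM), and CDKN1C lay between 1.57 and 5.42 CPM. The question was how these transcripts were distributed over cystic fibrosis (CF) and wild-type (WT) pancreatic ductal epithelium (PDE) cultures as they polarized, and how they stood against the share of cells called cycling.

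D-type cyclins bind CDK4 and CDK6 and direct them to the retinoblastoma protein, whose phosphorylation releases E2F factors and lets a cell enter S phase. The Cip/Kip proteins p21 (CDKN1A), p27 (CDKN1B) and p57 (CDKN1C) bind complexes of cyclin and CDK and restrain above all those with E- and A-type cyclins, and MYC binds DNA with MAX and activates genes of ribosome and nucleotide synthesis. D cyclin transcripts follow mitogen signals, p21 is the best known target of p53, and p27 and MYC protein levels depend strongly on turnover, which transcript counts do not show.

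The cells were ferret (Mustela putorius furo) ductal cells from newborn animals of 1 to 3 days of age, either WT or CFTR KO/KO, here called CF, in which the gene of the chloride and bicarbonate channel CFTR is knocked out. They had been passaged 10 times and were then placed at an air-liquid interface (ALI). After removal of dead cells, 1 droplet library was made with the 10x method for each genotype at day 2, 5, 7 and 9 of ALI culture. Cells of several donors were pooled, and no cell can be assigned to a donor here. There was therefore no replicate, genotype and donor cannot be told apart, and no test between groups could be run. Every interval below is a 95% interval of counting error only, exact Poisson for a level, Clopper-Pearson for a share and exact conditional binomial for a ratio.

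The deposited cell table retained 6224, 5326, 4634 and 5416 WT cells at day 2, 5, 7 and 9, and 4499, 2750, 1607 and 2489 CF cells. A library held 34735952 to 114585136 UMIs and shared 1 to 14 cell barcodes with any other. All 8 epithelial markers examined stood at 5 CPM or more in each library, with a sum of 8467 to 10918 CPM. The summed markers of other cells reached 29.9 CPM (8 endocrine genes), 30.2 CPM (7 fibroblast genes), 112 CPM (6 immune genes) and 0.259 CPM (6 endothelial genes) at most, and their part in the results was not tested. CFTR had 6.57, 16.9, 15.9 and 29.5 CPM in WT and 2.50, 8.69, 11.1 and 11.4 CPM in CF. Whether these reads come from the disrupted part is not given in the sources used here, so the level checks no label. The study's methods describe this genotype as one without CFTR transcript. The CF libraries held 256, 621, 386 and 570 CFTR UMIs, and the source of these reads was not tested. SOX2 stood at 68.5 to 115 CPM in WT and at 1 to 3 UMIs per library in CF, and 12 of the 41 WT clusters were SOX2-low (at most 4.87 CPM) against 29 SOX2-high clusters (at least 50.6 CPM). PDX1, a transcription factor of the pancreas, had 0 to 1 UMI per library in WT and 175 to 345 UMIs in CF. The WT and CF libraries thus stood apart in genes other than CFTR, and the donor or culture cannot be told apart from the genotype. CF was therefore also set against the WT cells of SOX2-low clusters alone.

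The gene models are given in assembly ASM1176430v1.1, in RefSeq's positions on sequences whose chromosome the table does not name. They spanned 13490012 to 13502540 for CCND1, 12791391 to 12821459 for CCND2, 8674248 to 8768834 for CCND3, 3703192 to 3711397 for CDKN1A, 35268264 to 35273395 for CDKN1B, 14972719 to 14975299 for CDKN1C and 28423616 to 28428853 for MYC, all 7 protein coding. CCND1 lay inside the span of LTO1 (13402574 to 13515521) and overlapped the gene LOC123387838, the end of CCND2 with the higher coordinates overlapped LOC123389647, and CCND3 held LOC123389537. Whether counting used strand is not given in the sources used here, so reads in these stretches are uncertain. LTO1 was counted at 20.3 to 29.3 CPM, and the other overlapping genes had no more than 1.04 CPM in any library.

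Among the D cyclins, CCND1 went in different directions in WT and CF cultures. The WT libraries of day 2, 5, 7 and 9 had 116 (114 to 118), 64.0 (62.4 to 65.5), 115 (112 to 117) and 97.7 (95.6 to 99.8) CPM. The CF libraries had 75.1 (73.4 to 76.8), 142 (139.7 to 145), 193 (188 to 198) and 218 (214 to 222) CPM. CF was higher on each later day, below WT at day 2 and above it from day 5 on. Relative to WT, the CF level was 0.647 (0.629 to 0.665) at day 2, 2.23 (2.16 to 2.30) at day 5, 1.69 (1.63 to 1.74) at day 7 and 2.23 (2.17 to 2.29) at day 9. In the order of the 8 CCND1 levels, WT day 2 and WT day 7 were the only neighbours whose ratio interval held 1.

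CCND2 was counted deeply, with 21438 to 41299 UMIs per library. It stood at 272 (268.5 to 274.5), 379 (375 to 383), 334 (330.3 to 338) and 461 (456 to 465) CPM in the WT series. The CF series had 404 (399.7 to 407.5), 529 (524 to 535), 617 (609 to 625.5) and 685 (678 to 692) CPM. CF was above WT on 4 of 4 days, as were 23.4% of the 10300 genes with 5 CPM or more in any library. The ratios to WT were 1.49, 1.397, 1.85 and 1.49 from day 2 to day 9, and no neighbours among the 8 levels had an interval that held 1. In either genotype the level of day 9 was 1.70-fold (1.67 to 1.72) that of day 2.

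CCND3 varied least of the 7, its highest level being 1.44-fold its lowest. WT had 137, 101, 95.04 and 122 CPM at the 4 days and CF had 112, 104, 97.3 and 109.7 CPM. In both genotypes day 7 was the lowest. Relative to WT, CF was 0.820 (0.800 to 0.840) at day 2 and 0.900 (0.871 to 0.930) at day 9, and the intervals of day 5 and day 7 held 1.

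Of the inhibitors, CDKN1A, which encodes p21, had the most UMIs of the 7, 415346 over the 8 libraries. WT cultures had 420.0 (416 to 424), 819 (814 to 825), 644 (638 to 649) and 908 (902 to 914.5) CPM at day 2, 5, 7 and 9. CF cultures had 524 (519.7 to 529), 509 (504 to 514), 628 (619 to 636) and 842 (834 to 850.5) CPM. Day 9 was the highest in both, WT had a first peak at day 5, and CF changed little until day 5. CF was 1.25-fold (1.23 to 1.26) WT at day 2, 0.621 (0.614 to 0.629) of WT at day 5, 0.975 (0.960 to 0.991) at day 7 and 0.928 (0.917 to 0.939) at day 9.

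CDKN1B, which encodes p27, was lower in CF on 4 of 4 days, as were 18.6% of the 10300 genes. WT had 39.97, 58.1, 58.5 and 57.1 CPM and CF had 29.9, 38.1, 41.8 and 38.2 CPM. The ratios of CF to WT were 0.747 (0.713 to 0.782), 0.655 (0.626 to 0.686), 0.714 (0.673 to 0.757) and 0.669 (0.635 to 0.706). Day 2 was the lowest library of each genotype, and the WT libraries of day 5, 7 and 9 were neighbours whose ratio intervals held 1. CDKN1C, which encodes p57, rested on 180, 548, 338 and 255 WT UMIs and on 238, 166, 92 and 216 CF UMIs. These gave 1.57, 5.42, 4.07 and 3.01 CPM for WT and 2.33, 2.32, 2.65 and 4.32 CPM for CF, with the highest level at day 5 in WT and at day 9 in CF. At such levels free RNA was not separated from expression.

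MYC was highest in WT at day 2. WT had 45.6 (44.3 to 46.8), 24.01 (23.1 to 24.98), 23.99 (22.9 to 25.1) and 15.7 (14.9 to 16.6) CPM on the 4 days, and CF had 20.1 (19.2 to 20.98), 20.5 (19.5 to 21.6), 21.6 (20.1 to 23.3) and 24.6 (23.2 to 26.01) CPM. The WT series was lowest at day 9 and the CF series highest there. WT day 9 was 0.346 (0.325 to 0.367) of WT day 2, and CF day 9 was 1.22-fold (1.14 to 1.31) CF day 2. Relative to WT, CF was 0.441 (0.419 to 0.464) at day 2, 0.856 (0.801 to 0.913) at day 5, 0.902 (0.829 to 0.982) at day 7 and 1.56 (1.44 to 1.69) at day 9.

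**Figure D1:**
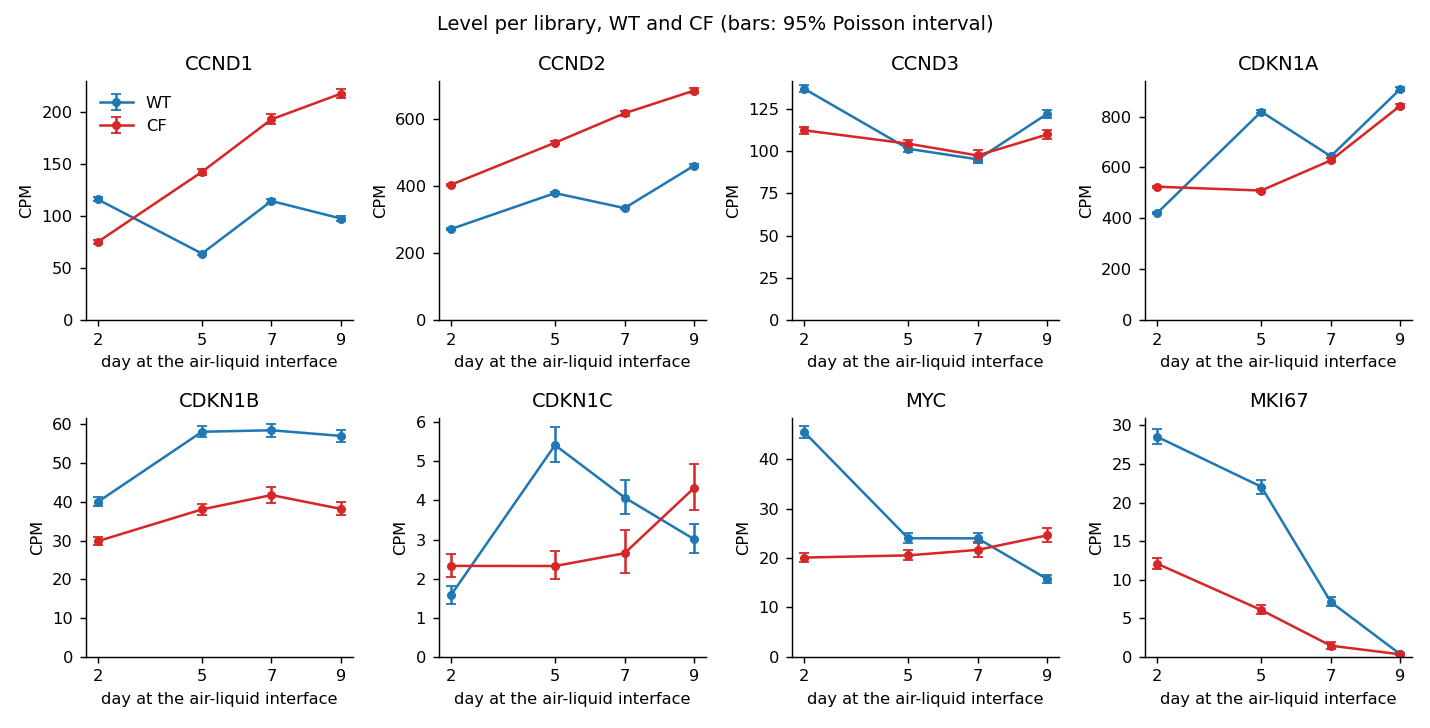
Level of each of the 7 genes and of MKI67 in CPM (y axis, from 0) against the day at the air-liquid interface (x axis), with 1 point per library and bars for the 95% Poisson interval, WT in blue and CF in red. CF lies above WT in CCND2 and below WT in CDKN1B on 4 of 4 days, while the lines of CCND1 and MYC cross.

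Few members were past 2-fold on the scale of log2(CPM + 1), where a gene counts as tested with 5 CPM or more in 1 of the 2 libraries compared. Between CF and WT these were MYC at day 2 (lower, log2 difference -1.14), CCND1 at day 5 (higher, 1.14), 0 members at day 7 and CCND1 at day 9 (higher, 1.15). Against the SOX2-low WT cells, MYC at day 2 (-0.54) and CCND1 at day 9 (0.32) were no longer past 2-fold, while CDKN1C was past 2-fold lower in CF at day 2 (-1.07) and day 5 (-1.18). With equal weight per cell CCND2 was past 2-fold higher at day 7 (1.17). Of all genes tested, 4.46%, 2.48%, 5.29% and 3.81% were past 2-fold higher at day 2, 5, 7 and 9, and 4.55%, 4.57%, 3.14% and 3.91% past 2-fold lower. From day 2 to day 9, CDKN1A was past 2-fold higher in WT (1.11, with 9.43% of genes), MYC past 2-fold lower in WT (-1.48, with 6.57%) and CCND1 past 2-fold higher in CF (1.52, with 7.26%). This CDKN1A difference in WT was 0.91 with scaling by trimmed mean of M-values (TMM) and 0.79 in cells called G1, both under 2-fold. No member was past 2-fold lower in CF over that time, against 3.23% of genes. TMM in place of totals shifted the log2 differences between CF and WT by -0.21 at day 7 and -0.13 at day 9, and the share of higher genes among those past 2-fold at day 7 went from 62.8% to 45.2%. Under it the CCND3 difference of day 7, 0.03 with totals, was below 0.

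Which WT cells CF was set against changed several of these differences. The SOX2-low clusters held 892, 1801, 1276 and 1510 WT cells at day 2, 5, 7 and 9. CCND1 in these cells was 49.98, 68.8, 149 and 174 CPM, higher on each later day as in CF, whereas SOX2-high cells had 126, 59.9, 96.5 and 64.3 CPM. Against SOX2-low cells, CF differed in CCND1 by 0.58, 1.04, 0.37 and 0.32 on the log2 scale, above 0 at day 2 as well. For CCND2 these differences were 0.23, 0.80, 0.80 and 0.47.

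CDKN1A in SOX2-high cells was 403, 1156, 779 and 985 CPM, and in SOX2-low cells 539, 421, 388 and 733 CPM. The WT peak at day 5 was thus found in SOX2-high cells, and both kinds of cell had less at day 7 than at day 9. The CF difference in CDKN1A against SOX2-low cells was -0.04, 0.27, 0.69 and 0.20, opposite in sign on each day to that against all WT cells. CDKN1B was 41.7, 48.2, 45.7 and 42.9 CPM in SOX2-low cells and 39.7, 66.5, 65.3 and 63.2 CPM in SOX2-high cells. CF was below either, by -0.47, -0.33, -0.13 and -0.16 on the log2 scale against SOX2-low cells and by -0.40, -0.79, -0.63 and -0.71 against SOX2-high cells.

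CDKN1C stood at 5.99, 6.51, 5.66 and 4.88 CPM in SOX2-low cells, above CF at the same day, and at 0.921, 4.49, 3.24 and 2.19 CPM in SOX2-high cells. At day 9 the CDKN1C interval of SOX2-low cells (4.07 to 5.81 CPM) overlapped that of CF (3.76 to 4.94 CPM). MYC at day 2 was 47.9 CPM in SOX2-high and 29.8 CPM in SOX2-low cells. The CF difference at day 2 was -1.21 against the SOX2-high and -0.54 against the SOX2-low cells. MKI67, a gene of proliferating cells, was 19.5, 47.6, 17.8 and 0.659 CPM in SOX2-low cells and 29.9, 0.456, 1.47 and 0.187 CPM in SOX2-high cells, and its part in the differences above was not tested.

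**Figure D2:**
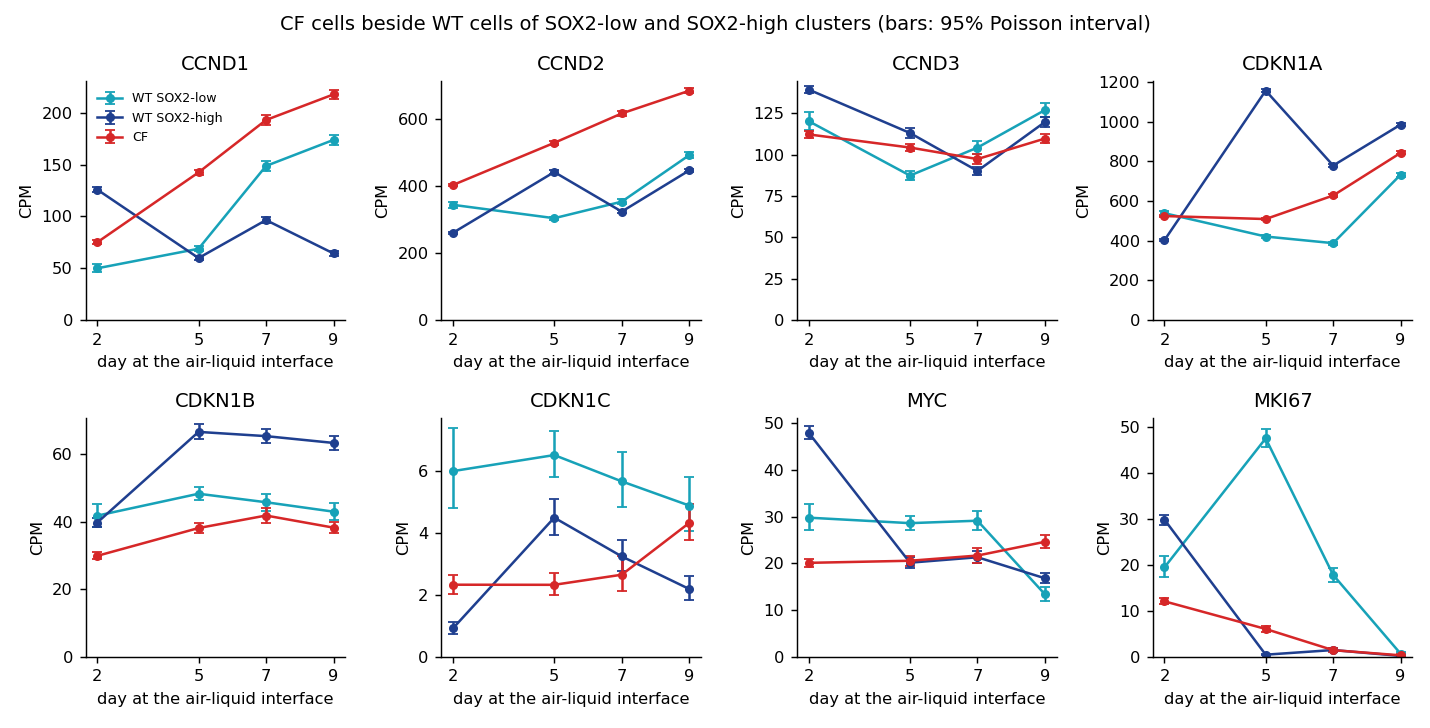
Level in CPM (y axis, from 0) against the day at the air-liquid interface (x axis) for CF cells (red), WT cells of SOX2-low clusters (light blue) and WT cells of SOX2-high clusters (dark blue), with bars for the 95% Poisson interval. CCND1 is higher on each later day in CF and in SOX2-low WT cells, and CDKN1A peaks at day 5 in SOX2-high WT cells.

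The share of cycling cells depended on how it was measured. The deposited Phase column gives a cell the phase with the higher positive score of an S and a G2M gene list, and no member is in either list used for scoring here. By it, 34.1% (32.9 to 35.3), 35.9% (34.6 to 37.2), 56.5% (55.01 to 57.9) and 70.0% (68.8 to 71.2) of cells were called S or G2M in the WT libraries from day 2 to day 9. The CF libraries had 40.1% (38.6 to 41.5), 52.1% (50.2 to 53.96), 66.8% (64.5 to 69.1) and 70.1% (68.2 to 71.9). Transcripts of the proliferation genes went the other way. MKI67 stood at 28.5, 22.05, 7.11 and 0.330 CPM in WT and at 12.1, 6.06, 1.44 and 0.320 CPM in CF. TOP2A, a topoisomerase gene of cycling cells, stood at 48.4, 45.4, 14.5 and 0.955 CPM in WT and at 21.2, 14.03, 2.27 and 1.88 CPM in CF.

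When each cell was thinned to 3000 UMIs and the phase was called again over all libraries together, the WT libraries had 34.9%, 21.3%, 13.1% and 9.89% of cells in S or G2M and the CF libraries 19.1%, 11.5%, 8.86% and 8.74%. At the same depth at least 1 MKI67 or TOP2A UMI was found in 9.51%, 4.48%, 1.49% and 0.379% of WT and in 4.17%, 1.92%, 1.17% and 0.883% of CF cells. The shallower cells left out numbered 80, 150, 73 and 136 for WT and 39, 45, 411 and 224 for CF. Both measures were lowest at day 9 in either genotype, where the deposited share was highest. MKI67 and TOP2A are also in the G2M gene list used to call the phase after thinning, so these measures share genes.

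In cells that the deposited column called G2M, MKI67 was 184 CPM in WT at day 2 and 0.460 CPM in WT at day 9, against 0.958 and 0.0800 CPM in cells called G1. The median of the higher of the 2 deposited scores in these G2M cells was 0.395 at day 2 and 0.0199 at day 9. Of the WT cells called S, 62.6% were called S again after thinning at day 2 and 2.66% at day 9. Of 39 clusters with over 50% of cells called S or G2M, 5 had at least 100 CPM of MKI67 plus TOP2A and 27 had under 5 CPM. The deposited share alone was therefore not read as cycling.

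**Figure D3:**
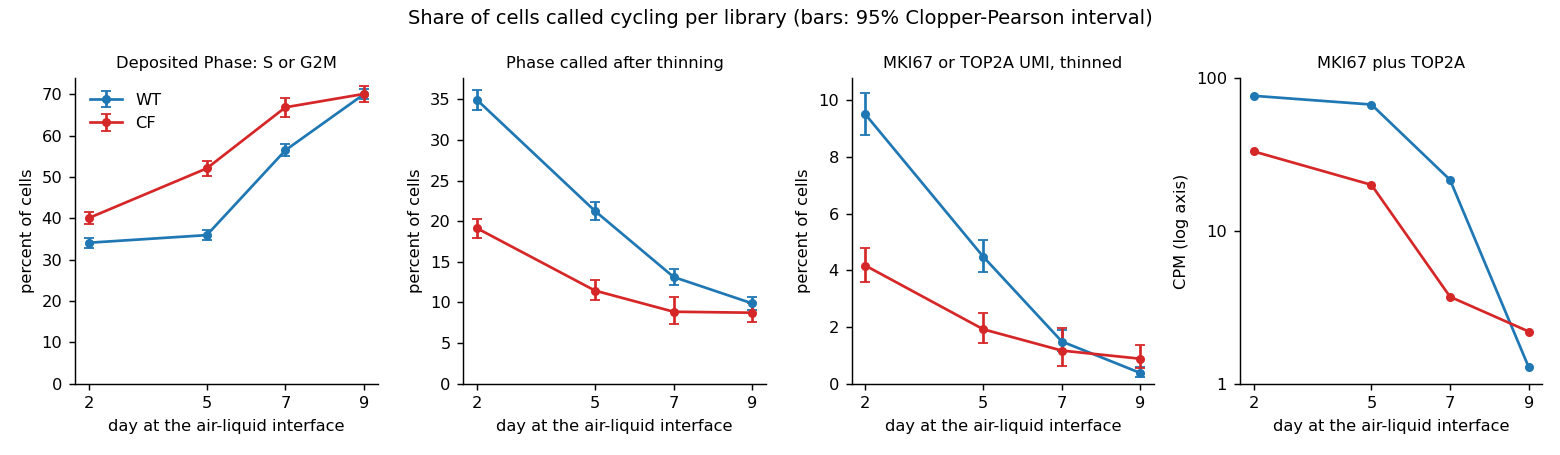
Percent of cells per library (y axes of the first 3 panels, from 0) called S or G2M in the deposited Phase column, called S or G2M after thinning to 3000 UMIs, and with an MKI67 or TOP2A UMI after thinning, with bars for the 95% Clopper-Pearson interval, and MKI67 plus TOP2A in CPM (last panel, log axis), against the day at the air-liquid interface. Within each genotype the deposited share is highest at day 9, and the other 3 measures are lowest there.

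Within a library, cells called S or G2M in the deposited column had less CCND2 and CCND3 than cells called G1 in 8 of 8 libraries, and more MYC in 8 of 8. Over the 10300 genes, 10.9% were lower and 12.5% higher in 8 of 8 libraries. The CCND2 differences lay between -0.38 and -0.12 on the log2(CPM + 1) scale with a median of -0.27, those of CCND3 between -0.67 and -0.20 with a median of -0.33, and those of MYC between 0.05 and 0.60 with a median of 0.22. CCND1 had a median of 0.02, CDKN1A of 0.01 and CDKN1B of 0.03, each with libraries on both sides of 0. The CCND1 median joined 2 phases that differed: cells called G2M stood between -0.76 and -0.03 against G1, with a median of -0.16, and cells called S between -0.16 and 0.34, with a median of 0.08. CDKN1A was lower in called cells at day 2 and 5 of both genotypes and higher at day 7 and 9, with the lowest difference -0.35 in WT at day 5 and the highest 0.32 in WT at day 9.

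These differences were smaller when a cluster was compared with itself. Over clusters with at least 20 cells of either kind, the medians of the 8 libraries were -0.11 for CCND2, -0.03 for CCND3 and 0.02 for MYC. With the phase called after thinning they were -0.07, -0.16 and 0.14, and all 3 genes then had libraries on both sides of 0. With cells split by a UMI of MKI67 or TOP2A after thinning, the medians were -0.37 for CCND1, -0.37 for CCND2 and -0.45 for CCND3, below 0 except for CCND1 in CF at day 9 (0.28) and for CCND2 (0.02) and CCND3 (0.11) in WT at day 9. For MYC the median was 0.12, between -0.28 and 0.55, with 0 intervals above 1 and those of WT at day 5 and CF at day 2 below 1. WT and CF at day 9 had 20 cells with such a UMI each, and CF day 7 had 14.

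**Figure D4:**
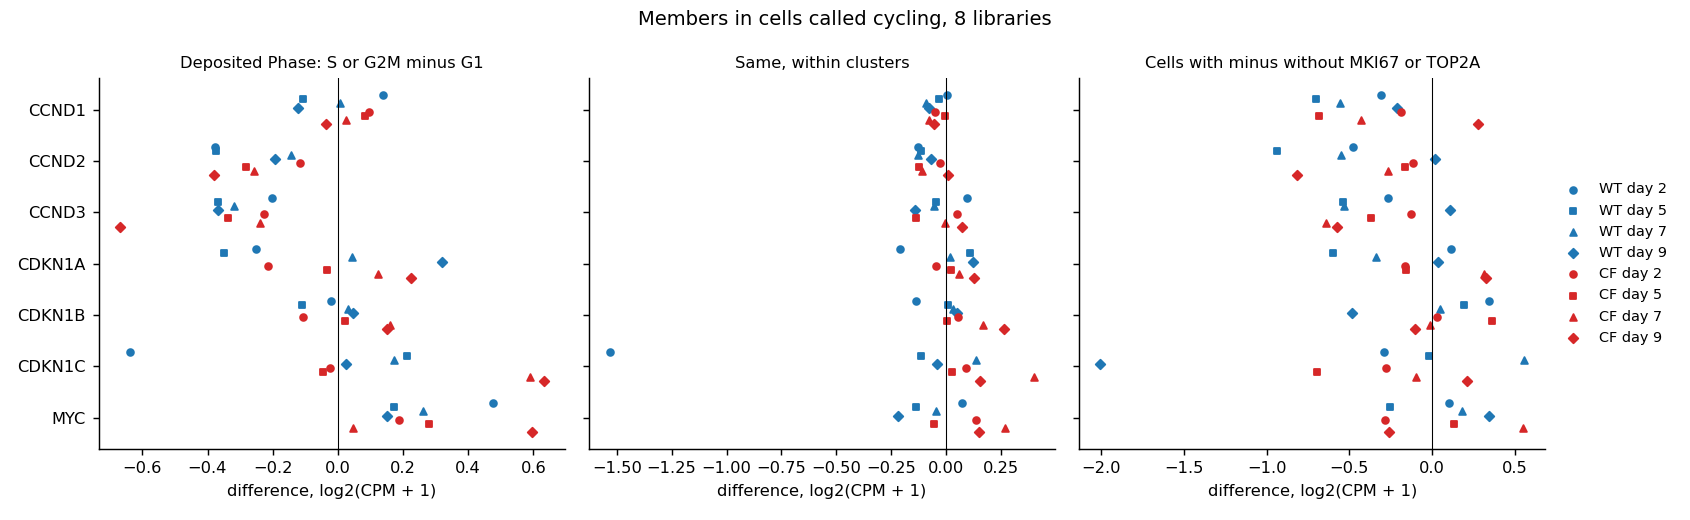
Difference in log2(CPM + 1) (x axis) of each of the 7 genes (y axis) between cells called S or G2M and G1 (left), the same within clusters (middle), and between cells with and without an MKI67 or TOP2A UMI (right), with 1 mark per library, colour for genotype and shape for day. In the left panel the marks of CCND2 and CCND3 lie below 0 and those of MYC above 0 in 8 of 8 libraries.

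The 5 clusters with at least 100 CPM of MKI67 plus TOP2A were compared with the other clusters of the same kind (CF, SOX2-low WT or SOX2-high WT) that drew most of their cells from the same day. In the deposited table, WT 27 (701 CPM of MKI67 plus TOP2A) was named proliferating ductal, CF 24 (528), WT 28 (476) and WT 25 (440) proliferating acinar and WT 31 (303) ductal. The next cluster had 64.9 CPM. The same-day clusters numbered 3 for WT 27 and WT 31, which shared them, 10 for CF 24, and 8 for WT 28 and WT 25, which also shared them. CEL, the only gene of 8 acinar enzymes measured here, had at most 0.0700 CPM in any library, so the acinar names are used only as given.

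CCND2 was 199.6, 310.4, 222, 167 and 232 CPM in WT 27, CF 24, WT 28, WT 25 and WT 31, against a median of 342, 381, 253, 253 and 342 CPM in the same-day clusters. CCND1 was 35.8, 71.3, 114, 85.5 and 57.5 CPM and CCND3 was 68.6, 84.2, 119, 109 and 81.7 CPM. All 3 D cyclins and CDKN1C were below the same-day median in 5 of 5 clusters, as were 15% of the 10300 genes. Some gaps were small, as for CCND3 in WT 31 (81.7 against 86.5 CPM) and CDKN1C in CF 24 (1.94 against 2.04 CPM). CDKN1C was only 0.483 and 0.814 CPM in WT 28 and WT 25. Against clusters of the same kind from all days, CCND2, CCND3 and CDKN1A were below the median in 5 of 5, as were 22.4% of genes. CCND1 was then below it in 3 and above it in 2 (WT 28 and WT 25, against 71.6 CPM). CDKN1B was above the same-day median in 5 of 5, as were 24% of genes, and above that of all days in 3, at 70.6, 39.5, 57.8, 45.6 and 45.1 CPM. MYC was below its same-day median in 3 of 5 and CDKN1A in 2 of 5. Clusters were formed from expression, so these values describe them and test nothing.

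Over the 68 clusters of at least 50 cells (39 WT, 29 CF), levels ranged more widely than over libraries. CCND1 ran from 32.0 CPM in WT 18, a centroacinar progenitor cluster, to 363 CPM in CF 21. CCND2 ran from 167 CPM in WT 25 to 1224 CPM in CF 21, and CCND3 from 30.1 CPM in WT 23 to 296 CPM in WT 17. CF 21 is one of 7 clusters of low depth with no marker of its class among its leading genes. Of the others CF 7, a centroacinar cluster with 95.9% of its cells from day 9, had the most CCND2, 1165 CPM, beside 258 CPM of CCND1 and 219.9 CPM of CCND3. The 5 clusters CF 7, CF 21, CF 25, WT 17 and WT 30 were in the upper quartile of all 3 D cyclins. MYC was 5.95, 14.5, 10.6, 4.23 and 11.3 CPM in them, below its median of 21.5 CPM over the 68 clusters. How many of all genes were below their median in the same clusters was not counted.

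CDKN1A was highest in WT 20 (2087 CPM), of low depth, followed by the SOX2-high ductal cluster WT 23 (1909 CPM), CF 23 (1867 CPM, of low depth) and the SOX2-high ductal cluster WT 2 (1844 CPM). WT 23 and WT 2 had 30.1 and 46.7 CPM of CCND3, against a median of 125 CPM over the 27 SOX2-high clusters. CDKN1B had a median of 58.8 CPM over SOX2-high clusters, 43.7 CPM over 12 SOX2-low clusters and 34.6 CPM over CF clusters. CDKN1C lay between 4.21 and 9.74 CPM in SOX2-low clusters with a median of 5.71 CPM, against medians of 1.78 CPM in SOX2-high and 2.11 CPM in CF clusters. MYC was highest in WT 4, a SOX2-high ductal cluster of day 2, with 66.7 CPM, and lowest in CF 17, a centroacinar progenitor cluster, with 3.68 CPM.

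Correlations over these clusters describe points that share libraries, differ in depth and were clustered on expression. Pearson's r of log2(CPM + 1) between CCND3 and MYC was -0.36 over the 39 WT and -0.75 over the 29 CF clusters, with Spearman's rho of -0.37 and -0.84. In the same order r was -0.59 and -0.22 for CCND3 and CDKN1A, -0.55 and -0.60 for CCND3 and CDKN1C, -0.52 and -0.46 for CCND2 and MYC, 0.57 and 0.21 for CDKN1A and CDKN1B, and -0.42 and 0.40 for CCND1 and CDKN1B. It was 0.52 and 0.55 for CDKN1A and CDKN1C, and 0.24 and 0.55 for CCND2 and CCND3. No rule set which pairs are given. Against the share of cells called S or G2M, r lay between -0.27 (CCND3) and 0.15 (CDKN1B) in WT and between -0.35 (CCND3) and 0.42 (CCND1) in CF. Against the log2 of MKI67 plus TOP2A, CCND2 had -0.55 and MYC 0.43 in WT, and CCND2 had -0.15, MYC 0.16 and CCND1 -0.32 in CF. Spearman's rho was -0.46 for CCND2 and 0.49 for MYC in WT. In CF rho was 0.001 for CCND2, 0.25 for MYC and -0.13 for CCND1.

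**Figure D5:**
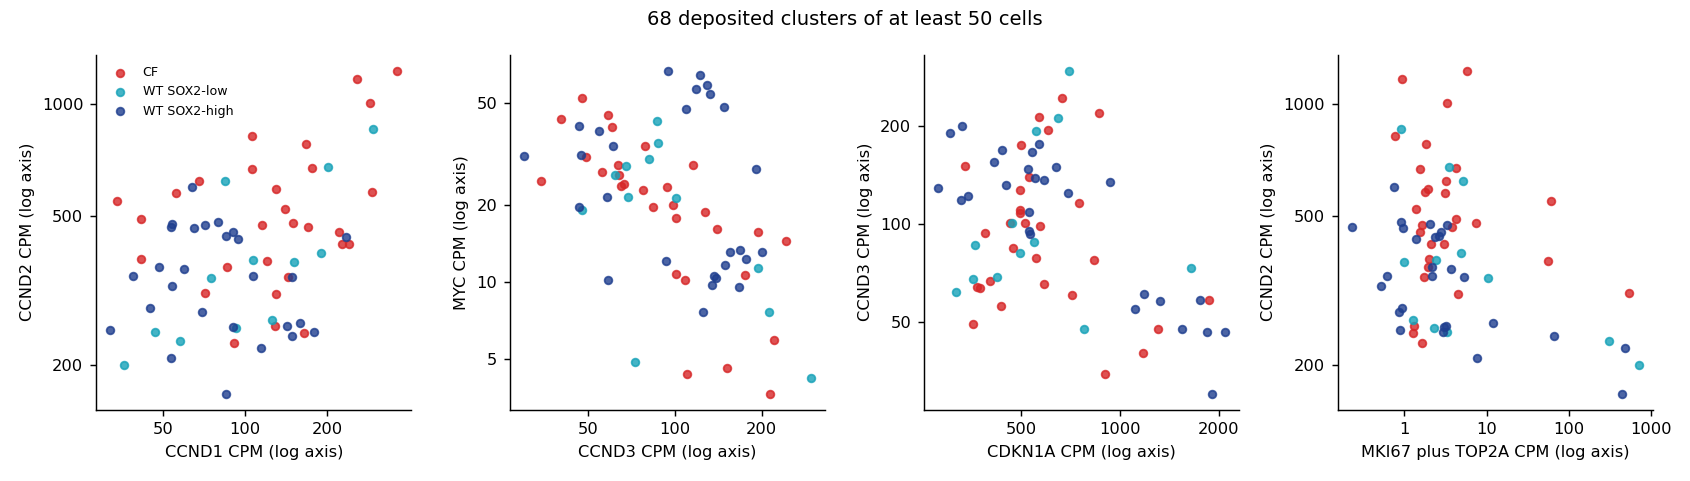
CPM of CCND2 against CCND1, MYC against CCND3, CCND3 against CDKN1A and CCND2 against MKI67 plus TOP2A in 68 clusters of at least 50 cells (1 point each, log axes), CF in red, WT SOX2-low in light blue and WT SOX2-high in dark blue. CCND3 and MYC run in opposite directions among CF clusters, and the 5 clusters at the right of the last panel lie between 167 and 310.4 CPM of CCND2.

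The genes whose levels over the 68 clusters were most like each member were taken by Pearson's r among 10396 genes. They were FAM118A (0.67), GALNT3 (0.61) and CDK6 (0.61) for CCND1, SH3BGRL2 (0.81), ATP11B (0.80) and FZD5 (0.79) for CCND2, and LOC101685363 (0.88), RAB3D (0.87) and XDH (0.84) for CCND3. For the inhibitors they were LOC123390887 (0.87), BBC3 (0.85) and OS9 (0.84) for CDKN1A, RCBTB2 (0.80), JUND (0.79) and RPAP3 (0.77) for CDKN1B, and SARDH (0.77), LOC123390410 (0.75) and TFAP2A (0.75) for CDKN1C. For MYC they were SEMA4A (0.85), CCT5 (0.84) and WNT4 (0.84). CDK6 encodes a kinase partner of the D cyclins, BBC3 a pro-apoptotic protein of the p53 response, and CCT5 a subunit of a chaperonin.

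Deposited classes were compared over clusters whose leading genes did not name another class and that were not of low depth. Clusters had been made per genotype, so each class is made of different clusters in WT and CF. In centroacinar cells CCND1 was 159, 214 and 246 CPM in CF and 81.7, 117 and 80.2 CPM in WT at day 5, 7 and 9. Most CF cells came from CF 0, 5 and 15 at day 5, CF 16, 3, 11 and 14 at day 7 and CF 3, 7 and 11 at day 9, and most WT cells from WT 7 and 12, WT 12 and 16 and WT 3, 7 and 16. The ratio of day 9, over 1643 CF and 2192 WT cells, had an interval of 2.94 to 3.20. CDKN1B was 36.5, 43.0 and 37.7 CPM in CF and 73.2, 68.4 and 62.8 CPM in WT in the same cells, and CCND3 was 74.3, 55.2 and 110.2 CPM against 125, 98.6 and 142 CPM. Of these WT cells 95.9%, 87.2% and 93.3% came from SOX2-high clusters, and the rest from the SOX2-low cluster WT 30 (this split of classes by SOX2 was added after seeing the data). In the 81 and 146 SOX2-low WT cells of day 7 and 9, CCND1 was 204 and 201 CPM and CDKN1B 34.0 and 39.1 CPM. Against them the interval of the CCND1 ratio held 1 at day 7 and ran from 1.13 to 1.33 at day 9, and both CDKN1B intervals held 1. The CCND1 difference was thus smaller against the SOX2-low than against the SOX2-high WT cells at day 7 and 9, and day 5, with 30 SOX2-low cells, was not compared by side. CCND3 in CF was below both WT sides at day 7 and 9, but CF clusters differed in it: at day 9 the 787 cells of CF 3 and CF 11 had 43.8 CPM and the 473 cells of CF 7 had 221 CPM. Without CF 3 and CF 11, a comparison added after seeing the data, CF had 158 CPM of CCND3 against 142 CPM in WT at day 9 and stayed below WT at day 5 and 7.

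In centroacinar progenitors CCND1 was 54.1, 125, 157 and 127 CPM in CF and 60.3, 49.3, 46.2 and 59.5 CPM in WT at day 2, 5, 7 and 9. Most CF cells came from CF 4, CF 17 and 25, CF 18 and 17 and CF 18, and most WT cells from WT 13, WT 10 and 18, WT 18, 10 and 24 and WT 21 and 10. CCND2 in these cells was 575, 661, 775 and 557.5 CPM in CF and 365, 331, 251 and 325 CPM in WT. Every WT progenitor cell compared came from a SOX2-high cluster, so no SOX2-low WT progenitors could be set beside CF. The progenitors of CF held more CCND2 at each day, and more CCND1 from day 5 on, than these SOX2-high WT cells. CCND2 in centroacinar cells was 491, 500 and 702 CPM in CF at day 5, 7 and 9. WT had 513, 422 and 511 CPM. Against WT, CF was below at day 5 (interval of the ratio 0.930 to 0.984) and above at day 7 and 9. The CF clusters differed at day 9: CF 3 and CF 11 had 433 CPM, below WT (0.825 to 0.872), and CF 7 had 1177 CPM. Against SOX2-low WT centroacinar cells CF was below at day 7 (0.724 to 0.809), and the day 9 interval held 1. In ductal cells CF was above WT on each day, but below SOX2-low WT cells at day 2 (0.925 to 0.989). Against SOX2-high WT ductal cells the day 5 interval held 1 (0.960 to 1.02).

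In centroacinar cells CF had 27.96, 32.2 and 29.5 CPM of MYC against 14.4, 23.1 and 12.04 CPM in WT at day 5, 7 and 9. The CF clusters of this class were unlike each other. At day 9 CF 3 and CF 11 together had 49.5 CPM of MYC, and CF 7 had 6.07 CPM, below WT. The leading genes of CF 11 include ACTA2, COL1A1 and TAGLN and those of CF 3 include SPARC and VCAN, genes of contractile fibres and matrix. The 7 fibroblast markers summed to 230 CPM in CF 11 and 16.7 CPM in CF 3, against 0.514 to 3.45 CPM in the other CF and 2.18 to 16.8 CPM in the WT centroacinar clusters, and their part in the MYC values was not tested. Without CF 3 and CF 11 MYC was 27.5, 26.9 and 15.04 CPM in CF, with intervals of the ratio to WT of 1.63 to 2.24 at day 5 and 1.08 to 1.45 at day 9, and at day 7 the interval held 1. In progenitors CF had a MYC level of 16.0, 8.51, 2.82 and 2.16 CPM at day 2, 5, 7 and 9. WT had 12.7, 9.82, 11.7 and 11.2 CPM. The last 2 CF values rested on 195 and 180 cells with 19 and 9 MYC UMIs. CF progenitors were thus above the SOX2-high WT cells at day 2, with an interval of the ratio of 1.03 to 1.53. They were below these WT cells at day 7 and 9, and the interval of the progenitor ratio at day 5 held 1.

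In ductal cells CCND1 was 87.0, 127, 198 and 179 CPM in CF and 130, 69.0, 161 and 133 CPM in WT from day 2 to day 9, lower in CF at day 2 only. Against the SOX2-low WT ductal cells of day 2 (51.3 CPM) CF was higher, with an interval of the ratio of 1.56 to 1.84. Against the SOX2-high ones (148 CPM) it was lower. Over every deposited ductal cluster the ratio of CF to WT was 0.509, 1.84, 0.984 and 0.817, with an interval that held 1 at day 7 and lay below 1 at day 9 (0.752 to 0.886), so the day 9 direction rests on which clusters are kept. Against SOX2-low WT ductal cells of kept clusters the interval at day 9 held 1. MYC in ductal cells was 21.4, 16.5 and 10.2 CPM in CF and 50.5, 32.1 and 31.8 CPM in WT at day 2, 5 and 7, and the interval of the day 9 ratio, with 51 CF cells, held 1. Over every deposited ductal cluster at day 9, with 284 CF cells, MYC was 6.79 CPM in CF and 21.9 CPM in WT, with an interval of the ratio of 0.222 to 0.422, so the clusters left out decide this value. CDKN1A in ductal cells was 519.8, 454, 477 and 398 CPM in CF and 439, 860.1, 737 and 1111 CPM in WT from day 2 to day 9. The WT ductal cells were of both kinds, 19.4%, 53.6%, 50.9% and 65.3% of them SOX2-low from day 2 to day 9. CDKN1A was 540, 421, 381 and 735 CPM in the SOX2-low WT cells and 417, 1717, 1250 and 1903 CPM in the SOX2-high ones. CF ductal cells were thus below the SOX2-high WT cells from day 5 on, but above the SOX2-low ones at day 5 and 7 and below them at day 2 and 9. CF centroacinar cells had 532, 724 and 935 CPM of CDKN1A at day 5, 7 and 9, against 1023, 836 and 805 CPM in WT. At day 9 these CF cells were above WT cells of both SOX2 sides, but this rested on CF 3 and CF 11, which had 1250 CPM. Without these 2 clusters CF had 708 CPM at day 9, below all WT centroacinar cells (interval of the ratio 0.862 to 0.897). In progenitors CF had 591, 507, 441 and 378 CPM and WT 333, 628, 424 and 637 CPM from day 2 to day 9. CDKN1B in ductal cells was lower in CF at day 2 and 5, and the intervals of the ratio at day 7 and 9 held 1. They also held 1 against SOX2-low WT ductal cells on these 2 days. Over every deposited ductal cluster they lay below 1 (0.651 to 0.856 and 0.610 to 0.812). MYC in CF ductal cells was below both WT sides at day 2, 5 and 7. Most of these CF cells came from CF 2, 6 and 10 at day 2, CF 12 at day 5 and 7 and CF 26 and 29 at day 9, and most of the WT cells from WT 4, 6, 9 and 15, WT 2, 0 and 11, WT 14, 0 and 5 and WT 8 and 17.

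The wider pathway was counted over lists chosen by function, some of whose genes (CKS1B, CCNE2, DTL, E2F8, POLR1B) are also in the phase gene lists. So are MKI67, TOP2A, CDK1 and others of the cycle readout genes. The counts of CF against WT over these lists used all WT cells. Of 9 G1 kinases, E cyclins and activators, 7, 6, 6 and 6 were tested at day 2, 5, 7 and 9, and 0 were past 2-fold between CF and WT. CDK4 stood at 169, 143, 144 and 99.6 CPM in WT and at 117, 128, 149.7 and 134 CPM in CF. CDK6 stood at 104, 104, 90.6 and 83.3 CPM in WT and at 103, 114, 132 and 125 CPM in CF, above WT at day 5, 7 and 9 (log2 difference 0.13, 0.54 and 0.58). CDK4 was above WT in CF at day 9, while its log2 difference of day 7, 0.06, was smaller than the shift of -0.21 that TMM brought. Of 2 INK4 inhibitors that were counted, 0 were past 2-fold. Of 18 pocket protein and E2F genes, 15, 14, 12 and 12 were tested, and 1 of 15, E2F1, was past 2-fold lower in CF at day 2. Of 14 genes that act in the turnover of D cyclins, p27 and MYC, 14, 13, 13 and 12 were tested, and DTL, part of a ubiquitin ligase of S phase, was past 2-fold lower in CF at day 2. Single genes of 14 or 15 are near the background of 4.55% at that day.

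Of 20 genes of p53 and its targets other than CDKN1A, 19, 18, 17 and 18 were tested, and 3, 4, 0 and 1 were past 2-fold lower in CF with 0 higher. Over all genes tested 4.55%, 4.57%, 3.14% and 3.91% were past 2-fold lower, so that 1 of 18 at day 9 is near the background. The genes past 2-fold lower were SESN1, FAS and TP53INP1 at day 2, MDM2, SESN2, BBC3 and TP53INP1 at day 5 and TP53INP1 at day 9. The list's median log2 difference was -0.40, -0.59, -0.30 and -0.38, against medians over all genes of -0.01, -0.05, 0.13 and 0.08. These differences were against all WT cells, and the list was not split by SOX2. CDKN1A itself turned direction on each day against SOX2-low WT cells. TP53INP1, a p53 target of stress responses, had 67.99, 112, 124 and 179 CPM in WT and 32.9, 39.9, 62.2 and 61.8 CPM in CF. MDM2, the ubiquitin ligase of p53, had 163, 486, 471 and 535 CPM in WT and 99.6, 142, 257 and 385 CPM in CF.

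Of 20 genes listed as MYC targets, chiefly of ribosome and nucleotide synthesis, 19 were in the tables. Their median log2 difference between day 9 and day 2 was -0.88 in WT, with 6 of 19 tested past 2-fold lower, and -0.29 in CF, with 2 of 18 past 2-fold lower, and 0 were past 2-fold higher in either. Over all genes tested, 6.57% were past 2-fold lower in WT and 3.23% in CF between these days. The medians over all genes were 0.09 and 0.15. LDHA, HSPD1 and SRM, which have other functions, were among the 6 past 2-fold lower in WT, and LDHA was among the 2 in CF. Between genotypes the list's median was -0.42, 0.08, 0.04 and 0.26 at day 2, 5, 7 and 9. SRM, an enzyme of spermidine synthesis, was past 2-fold lower in CF at day 2. TFRC, the transferrin receptor, was past 2-fold higher in CF at day 2, 5 and 7, with 50.5, 68.2, 79.97 and 63.9 CPM against 24.1, 26.96, 27.8 and 31.95 CPM in WT. Of 13 MYC partners and antagonists in the tables, 10 or 11 were tested on each day, and MXD3, a partner of MAX, was past 2-fold lower in CF at day 5. Of all genes tested, 4.55% at day 2 and 4.57% at day 5 were past 2-fold lower, and 4.46%, 2.48% and 5.29% at day 2, 5 and 7 past 2-fold higher, so that a single gene among the 18 or 19 targets is near the background.

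Of 20 mitogen and FOXO regulators of the members, 18 were tested on each day. ERBB3, AXIN2 and BTG1 at day 2, ERBB3 at day 5, TGFBR1 at day 7 and EGFR at day 9 were past 2-fold higher in CF. BTG2 at day 7 and KLF4, AXIN2 and BTG2 at day 9 were past 2-fold lower in CF. A count of 1 in 18 is near the background, in which 2.48% to 5.29% of all genes were past 2-fold higher and 3.14% to 4.57% lower on these days. The list's median log2 difference was 0.30, -0.03, 0.24 and 0.03 at day 2, 5, 7 and 9, against -0.01, -0.05, 0.13 and 0.08 over all genes tested. TP53INP1 and TFRC were named by a rule on their values, past 2-fold on at least 3 of 4 days, and the other single genes of these lists were picked outside that rule after their values were seen.

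Of 13 cycle readout genes, 12 of 13, 8 of 12 and 5 of 9 tested were past 2-fold lower in CF at day 2, 5 and 7, and 0 of 1 at day 9, as were 4.55%, 4.57%, 3.14% and 3.91% of all genes tested. Among them, CDK1 and CCNB1 drive entry into mitosis. CDK1 stood at 34.7, 21.2, 10.2 and 2.54 CPM in WT and at 12.7, 7.29, 2.42 and 1.4997 CPM in CF. CCNB1 stood at 22.7, 17.8, 8.15 and 0.295 CPM in WT and at 8.58, 4.76, 1.90 and 0.200 CPM in CF. The counts past 2-fold are against all WT cells, and of this list only MKI67 and TOP2A were split by SOX2. At day 2 CF was below both WT sides in either gene. At day 5 CF had 6.06 and 14.03 CPM of them, SOX2-low WT cells 47.6 and 97.58 CPM and SOX2-high ones 0.456 and 1.24 CPM. Against SOX2-high cells, CF was thus higher at day 5 in both genes. At day 7 CF had 1.44 and 2.27 CPM, near SOX2-high cells (1.47 and 2.06 CPM) and below SOX2-low ones (17.8 and 38.2 CPM).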

How the data were processed

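Single-cell libraries of 4 WT and 4 CF cultures (day 2, 5, 7 and 9) were analysed, grouped by the labels. The authors deposited raw UMI counts per gene and cell (Cell Ranger 5.0.1, build ASM1176430v1.1 with an improved annotation) and a table of retained cells made in R 4.1.2 with Seurat, after filters on genes per cell and mitochondrial reads and doublet removal with DoubletFinder. In this deposited table, the percent of mitochondrial reads, the S and G2M score, the phase, the cluster and the class of each cell came from the authors. How phases were scored is not given in the sources used here. The deposited phase followed the sign of the deposited scores in 32945 of 32945 cells.

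UMIs of retained cells were summed per library, class or cluster and divided by the total (CPM), and differences were taken on log2(CPM + 1), which understates the change of low genes. Depth ran from 34735952 to 114585136 UMIs per library, and intervals cover counting error only. Cells of at least 3000 UMIs were thinned to 3000 and phases were called again with scanpy 1.11.5 and the gene lists of Seurat (41 of 43 S and 53 of 54 G2M genes matched). SOX2-low and SOX2-high WT clusters were parted at the largest gap in SOX2. A cluster was left out of class comparisons where markers of another class outnumbered those of its own among its 10 leading genes, or where its median UMI count was under 1/3 of its libraries' with no marker of its own (6 and 7 of 71 clusters). TMM factors came from edgeR 4.0.16. The other tools were Python 3.11.15, numpy 2.4.6, scipy 1.17.1, pandas 2.3.3 and R 4.3.3. The routine was tested on simulated data.

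The genes named were the 7 members, list genes past 2-fold in 1 direction on at least 3 of 4 days (up to 4 a list), the 3 genes most correlated with each member over clusters of at least 50 cells among genes of 5 CPM or more in 10 clusters, and MKI67, TOP2A, CFTR and SOX2. Other genes (CDK4, CDK6, MDM2, PDX1, genes leading 2 CF clusters and the list genes of small counts) were named outside this rule after their values were seen. The members and lists were chosen with earlier results of these data known. Alternatives changed the scaling, pseudocount, cells, phase calls, clusters and the minimum level. Listed genes outside the count tables, such as CDKN2A and CDKN2B, were not analysed here.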

Additional observations from a re-analysis of the deposited data

Results flagged for a closer look

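Some members differed in direction between genotypes or days, with counting intervals on opposite sides of equality. With 1 library per group, none of these differences was tested. The log2 difference between day 9 and day 2 was -0.25 in WT and 1.52 in CF for CCND1, and -1.48 in WT and 0.28 in CF for MYC. The CF minus WT log2 difference was -0.62 at day 2 and 1.15 at day 9 for CCND1, -1.14 and 0.61 for MYC, and 0.32 and -0.11 for CDKN1A. In WT cells of SOX2-low clusters alone, CCND1 was 49.98 CPM at day 2 and 174 CPM at day 9. Against these cells the CF difference at day 2 and 9 was 0.58 and 0.32 for CCND1, which then did not change direction, -0.54 and 0.83 for MYC, and -0.04 and 0.20 for CDKN1A, the reverse of its directions against all WT cells. The comparisons of 1 gene share libraries with each other.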

How the results depend on the processing

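No paired analysis was possible because each group, a genotype at a day, had 1 library and no result comes from a test. A fit of genotype with day as a block over the 8 libraries would take days as replicates and was not run. CF was above WT in 13 of 28 pairs of member and day, and in 12 to 14 under 10 other settings and 2 more added after seeing the data (cells with no MKI67 or TOP2A UMI, and no clusters of low depth). Single pairs turned direction: 8 of 28 against WT cells of SOX2-low clusters (CCND1 at day 2, CCND3 at day 7, CDKN1A on 4 days, CDKN1C at day 2 and 9), at most 2 under any other setting, and these were of CCND3 or CDKN1C. No difference past 2-fold turned under these 12. Against SOX2-low WT cells, CCND1 at day 9 (0.32) and MYC at day 2 (-0.54) were no longer past 2-fold, and CDKN1C was at day 2 (-1.07) and day 5 (-1.18). CDKN1C at day 5 also passed with equal weight per phase (-1.04) and over kept clusters (-1.04), and CCND2 at day 7 with equal weight per cell (1.17). The CDKN1A difference between day 9 and day 2 in WT was 0.91 with TMM and 0.79 in cells called G1. The share of cycling cells moved most. In WT at day 2, 5, 7 and 9, G2M alone gave 9.61%, 9.76%, 21.2% and 26.1%, calls after thinning gave 21.3%, 13.1% and 9.89% from day 5 on, and an MKI67 or TOP2A UMI gave 9.51%, 4.48%, 1.49% and 0.379%. In CF these were 13.8%, 14.9%, 33.1% and 35.3%, then 19.1%, 11.5%, 8.86% and 8.74%, then 4.17%, 1.92%, 1.17% and 0.883% in the same order. The cause was not tested. Of 14 correlations with the cycling share over clusters 11 were above 0, but 3 with calls after thinning and 3 with MKI67 plus TOP2A, both added after seeing the data. Genes past 2-fold between CF and WT numbered 857, 687, 830 and 751, and 442, 326, 430 and 419 at a minimum of 20 CPM, where fewer genes were tested. In cells called G1, CCND3 in both genotypes and MYC in CF turned direction between day 9 and day 2, each under 2-fold. Counts of 92 to 548 UMIs limit CDKN1C.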
